A study of Mus musculus with 4 samples.

Results

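The collagen chains of types I, III, V and VI are followed here through the aorta of mice on a Western or a chow diet. All probe sets whose platform annotation names exactly one of Col1a1, Col1a2, Col3a1, Col5a1, Col5a2, Col6a1, Col6a2 and Col6a3 were taken, which gave 15 probe sets for 8 genes among 12393 genes with a probe set of their own.

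The arrays measured total RNA of the aorta of 6-week-old female mice, each group on 1 array. The groups were C3H/HeJ apoE-/- mice on Western diet (C3H below), C3H apoE-/- mice on chow, C57BL/6 apoE-/- mice on Western diet and C57BL/6 apoE-/- mice on chow. All groups lacked apolipoprotein E, a protein that helps clear lipoprotein remnants from blood, and no wild type was analysed here. Mice were weaned onto chow at 3 weeks, and the Western diet ran for 2 weeks from 4 weeks of age. The labels call the chow mice hyperlipidemic and the Western-fed mice extremely so. The sources used here do not say whether an array held RNA of 1 mouse or of several. With 1 array a group no difference has a replicate check, and precision is limited by the small number of arrays.

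Collagens are proteins whose chains wind into a triple helix. Type I collagen, built from Col1a1 and Col1a2 chains, and type III collagen, built from Col3a1 chains, form the fibrils that give an artery its tensile strength. Type V collagen, built mainly from Col5a1 and Col5a2 chains, lies inside these fibrils and is known to start their assembly. Type VI collagen, classically built from Col6a1, Col6a2 and Col6a3 chains, forms beaded microfilaments near cell surfaces. In the artery, smooth muscle cells of the media and fibroblasts of the adventitia are known as their main sources, and growing atherosclerotic plaques are known to gain fibrillar collagen.

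The promoters of 3 chains are shown, because the chains share an order of the arrays and each of these stands for another collagen type. They are the 250 bases upstream of the transcription start in RefSeq (assembly GRCm38.p6), given 5′ to 3′ on the gene's strand. Capitals mark matches on either strand to the CCAAT box (letters CCAAT), the GC box (letters GGGCGG) or the TATA box (letters TATAAA), and no match overlaps another in these windows.
Col1a2, chr6:4505368-4505617, plus strand: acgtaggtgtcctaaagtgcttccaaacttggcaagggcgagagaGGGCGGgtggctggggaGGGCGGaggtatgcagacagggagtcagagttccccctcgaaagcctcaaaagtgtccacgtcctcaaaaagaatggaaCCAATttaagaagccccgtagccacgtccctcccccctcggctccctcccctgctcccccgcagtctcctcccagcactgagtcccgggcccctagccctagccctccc
Col3a1, chr1:45311288-45311537, plus strand: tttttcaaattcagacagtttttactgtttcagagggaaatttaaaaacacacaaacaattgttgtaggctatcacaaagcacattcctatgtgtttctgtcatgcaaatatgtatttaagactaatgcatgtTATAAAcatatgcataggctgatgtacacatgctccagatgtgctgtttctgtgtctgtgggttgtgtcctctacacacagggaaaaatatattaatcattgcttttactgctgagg
Col6a1, chr10:76726045-76726294, minus strand: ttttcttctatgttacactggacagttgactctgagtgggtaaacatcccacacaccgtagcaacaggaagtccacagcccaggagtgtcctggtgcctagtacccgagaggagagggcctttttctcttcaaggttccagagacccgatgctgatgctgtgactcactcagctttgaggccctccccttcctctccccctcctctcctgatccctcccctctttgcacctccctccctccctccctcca
No motif was common to the 3 windows. The Col1a2 window held 1 CCAAT box and 2 GC boxes, the Col3a1 window held 1 TATA box, and the Col6a1 window held none of these letters. In windows not printed, Col5a1 held 2 GC box matches, the 2 Col6a2 windows held 3 and 1, and Col6a3 held none. What the windows have in common thus depends on the chains shown, and no window was available for Col1a1 and Col5a2. Of 32851 RefSeq promoter windows of this length, 33.8% held the CCAAT letters, 32.7% the GC box letters and 12.4% the TATA letters, so such matches are common, and a match describes letters and not a binding site. In the RefSeq gene table Col3a1 and Col5a2 are neighbouring protein-coding genes on chromosome 1, as are Col6a1 and Col6a2 on chromosome 10, while the other 4 chains lie apart.

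Values below are signals after quantile normalization, and differences are log2 of their ratio. A signal counts as measured above a floor of 83.6, the 40th percentile of all values. A gene is represented by its brightest probe set unless another is named, and signals are compared between arrays, never between probe sets. Of the 15 probe sets, 14 were above the floor on all 4 arrays, and all 8 representative ones were.

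All 8 chains were at least 2-fold lower on Western diet in C57BL/6, and all 8 were higher on Western diet in C3H, where 2 passed 2-fold. In C57BL/6 the median log2 difference between diets was -1.54, and it ranged from -2.50 for Col1a1 to -1.05 for Col6a2. In C3H the median was 0.87, and it ranged from 0.45 for Col5a1 to 1.42 for Col5a2. Over all genes measured, 3.93% were at least 2-fold lower with Western diet in C57BL/6, with a median of 0.0. In C3H, 6.47% of all genes were at least 2-fold higher, with a median of -0.01. At least 2-fold higher with Western diet in C57BL/6 were 3.75% of genes, and at least 2-fold lower in C3H were 5.87%, and none of the chains was among either. In C57BL/6 7 of 8 chains passed 2-fold with the deposited values or with equal array medians, where Col6a2 stood at log2 -0.914 and -0.818, and with the median over probe sets, where Col5a2 stood at -0.999. These counts carry no test, and in bulk tissue fewer cells of a type and less RNA per cell cannot be told apart.

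**Figure D1:**
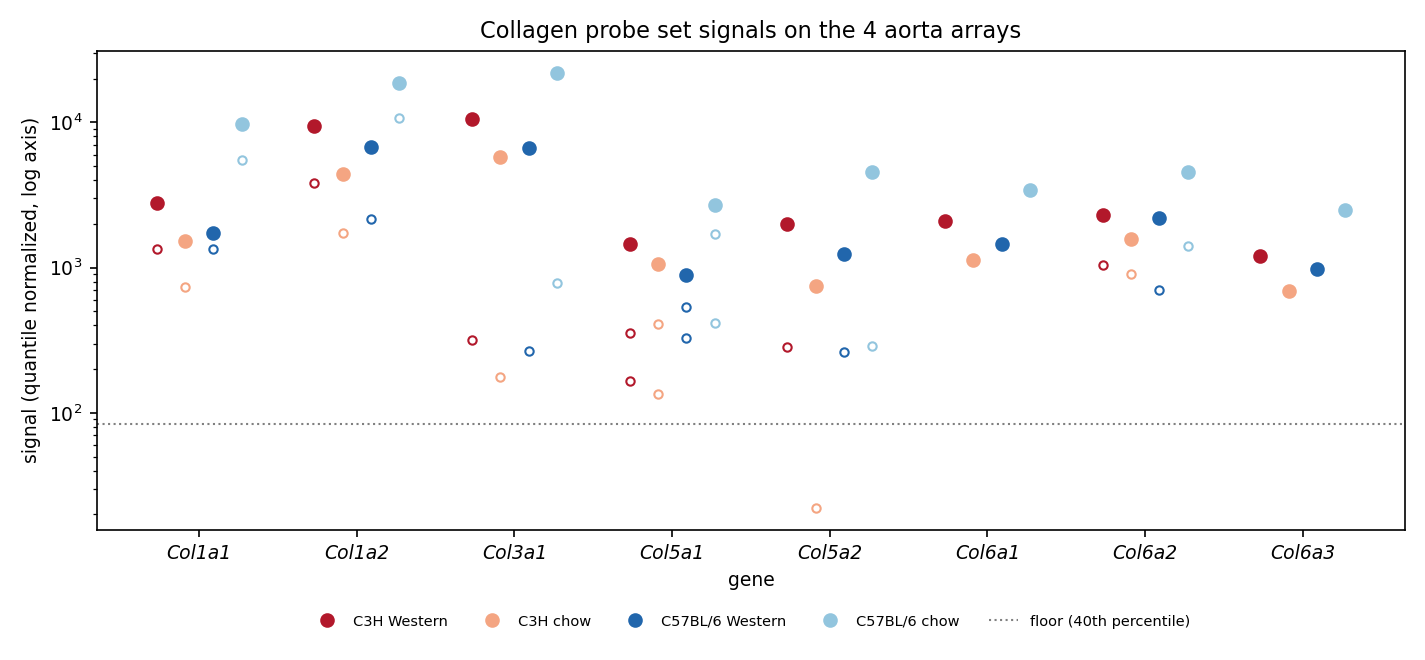
Signal of each collagen probe set (vertical log axis) on the C3H Western, C3H chow, C57BL/6 Western and C57BL/6 chow arrays, by gene. Filled points are the representative probe set, open points the further ones, and the dotted line is the floor of 83.6. The C57BL/6 chow array is the highest for every collagen probe set, where it is highest for 25.3% of the probe sets that pass the floor everywhere.

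Type I collagen comes first. Col1a1, the more abundant chain of the type I molecule, had a signal of 1720 on the C57BL/6 Western array against 9717 on C57BL/6 chow, and of 2782 on C3H Western against 1512 on C3H chow. With Western diet it was thus 5.65-fold lower in C57BL/6, while in C3H it was 1.84-fold higher. The other Col1a1 probe set, 1455494_at, had signals of 1347 on C57BL/6 Western against 5479 on C57BL/6 chow, and of 1350 on C3H Western against 739.4 on C3H chow. Both sets put C57BL/6 chow highest and C3H chow lowest.

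Col1a2, the partner chain, had signals of 6736 on C57BL/6 Western against 18678 on C57BL/6 chow, and of 9397 on C3H Western against 4423 on C3H chow. With Western diet it was 2.77-fold lower in C57BL/6, while in C3H it was 2.13-fold higher. By its other probe set, 1423110_at, it was 4.97-fold lower in C57BL/6, while in C3H it was 2.21-fold higher. In C57BL/6 the log2 difference of Col1a2 was -1.47 by the first set and -2.31 by the other, and the Col1a1 sets gave -2.50 and -2.02, so the order of the 2 type I chains depends on the probe sets chosen.

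Col3a1, the only chain of type III collagen, had signals of 6619 on C57BL/6 Western against 22024 on C57BL/6 chow, and of 10570 on C3H Western against 5807 on C3H chow. With Western diet it was 3.33-fold lower in C57BL/6, while in C3H it was 1.82-fold higher. Its dimmer probe set, 1427884_at, with signals of 175.5 to 787.5, gave 2.94-fold lower and 1.81-fold higher, close to the bright set. Both Col3a1 sets put the arrays in the same order.

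Type V collagen was split by probe set. Col5a2 had signals of 1238 on C57BL/6 Western against 4538 on C57BL/6 chow, and of 1984 on C3H Western against 744.1 on C3H chow, which is 3.67-fold lower and 2.67-fold higher. Its other set, 1450625_at, read 262.8 on C57BL/6 Western against 286.4 on C57BL/6 chow, and 283 on C3H Western against 22.2 on C3H chow, under the floor. By this set Col5a2 differed by log2 -0.12 between diets in C57BL/6 and was at least 3.39-fold higher with Western diet in C3H. It is the 1 probe set of the 15 that fell under the floor, and it did so on C3H chow alone.

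Col5a1, the chain found in most forms of type V collagen, had signals of 893.1 on C57BL/6 Western against 2708 on C57BL/6 chow, and of 1453 on C3H Western against 1062 on C3H chow. With Western diet it was 3.03-fold lower in C57BL/6, while in C3H it was 1.37-fold higher. Set 1434479_at gave 3.17-fold lower in C57BL/6 but 1.16-fold lower in C3H, and set 1416741_at gave 1.26-fold lower and 1.23-fold higher. In C3H 2 of the 3 Col5a1 probe sets were higher with Western diet, and all 3 differed by under 1.5-fold.

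In C57BL/6 the type VI chains had smaller differences between diets than the type I chains, while in C3H the difference of Col6a1 was log2 0.89 and that of Col1a1 0.88. Col6a1 had signals of 1460 on C57BL/6 Western against 3441 on C57BL/6 chow, and of 2078 on C3H Western against 1121 on C3H chow, which is 2.36-fold lower and 1.85-fold higher. Col6a3, whose chain carries the longest globular part of the molecule, had signals of 972.2 on C57BL/6 Western against 2489 on C57BL/6 chow, and of 1198 on C3H Western against 691.9 on C3H chow, which is 2.56-fold lower and 1.73-fold higher. Each of these genes has 1 probe set, and in both the 4 arrays stood in the same order.

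Col6a2, the remaining chain, had signals of 2190 on C57BL/6 Western against 4543 on C57BL/6 chow, and of 2299 on C3H Western against 1584 on C3H chow. With Western diet it was 2.07-fold lower in C57BL/6, while in C3H it was 1.45-fold higher. Its set 1426947_x_at, of a kind in which some probes may also match other transcripts, gave 2.03-fold lower and 1.16-fold higher. The median log2 difference in C57BL/6 was -1.99 for the type I chains, -1.73 for type III, -1.74 for the type V chains and -1.24 for the type VI chains. In C3H these medians were 0.98, 0.86, 0.93 and 0.79. The order of the types was not tested.

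**Figure D2:**
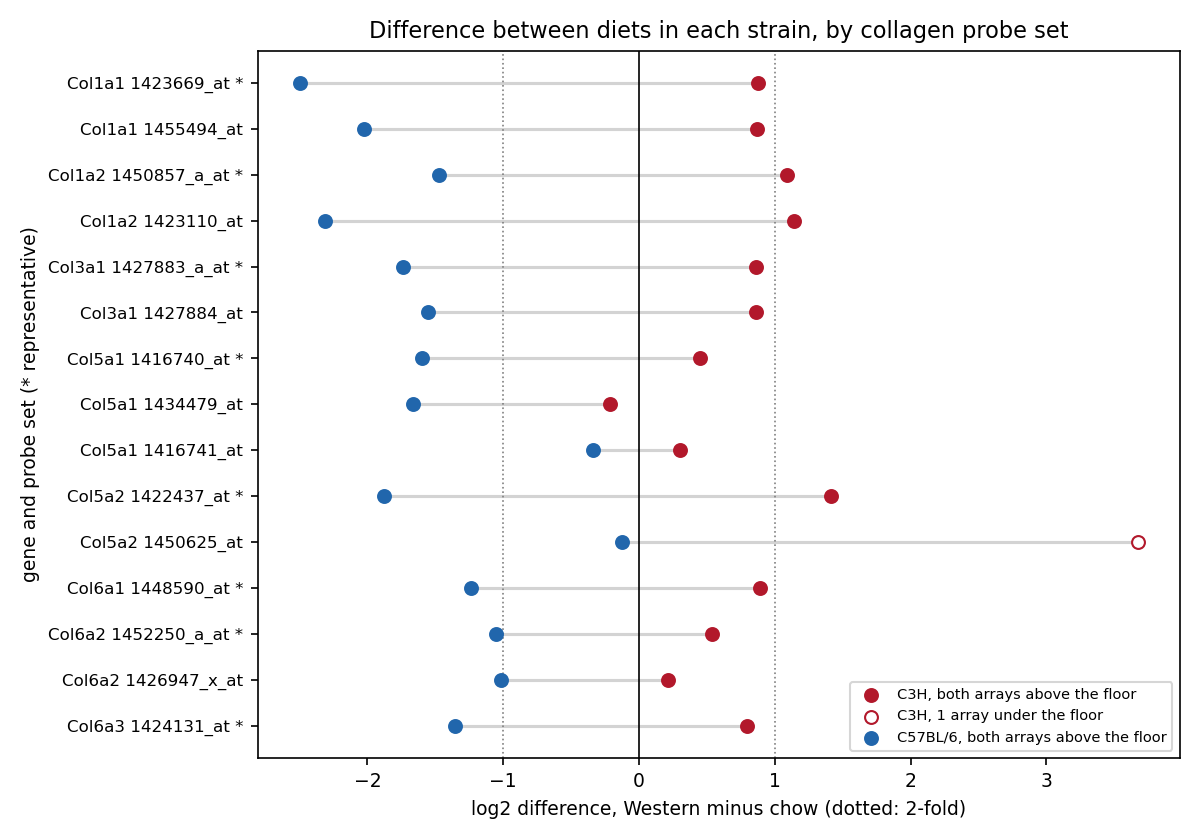
Log2 difference between Western and chow diet for each of the 15 collagen probe sets (rows), with C3H in red and C57BL/6 in blue. The asterisk marks the representative set and the open point has 1 array under the floor. All blue points are below 0, 13 of 15 past the 2-fold line, and all red points but 1 are above 0.

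The 15 probe sets were also counted one by one. In C57BL/6, 13 of 15 were at least 2-fold lower with Western diet, where 3.97% of all probe sets were. In C3H, 3 of 14 measured were at least 2-fold higher, where 6.4% of all were, and 13 of 14 were above 0. For scale, probe sets of the same gene differed from each other with a pooled SD of log2 0.51 in the C57BL/6 comparison and 0.58 in the C3H comparison. Every representative chain differed by more than this SD in C57BL/6, while in C3H Col5a1 and Col6a2 did not.

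The diet differences of the strains share no array, so they can be set side by side. A lower signal with Western diet in C57BL/6 together with a higher one in C3H, of any size, was found for 8 of 8 chains, where 27.0% of 5646 genes above the floor on all arrays had it. Past 2-fold on both sides it held for 2 of 8, Col1a2 and Col5a2, where 0.39% of those genes had it. The C3H difference minus the C57BL/6 difference had a median of log2 2.35 over the chains, and a median of -0.01 over all 5646 genes. It was at least 2-fold for 8 of 8 chains, where 13.2% of genes had it. Across the 8 chains the differences in C57BL/6 and in C3H correlated with Pearson r = -0.34, a description over genes of the same arrays. Chains that were lower by more in C57BL/6 were thus only loosely those that were higher by more in C3H.

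**Figure D3:**
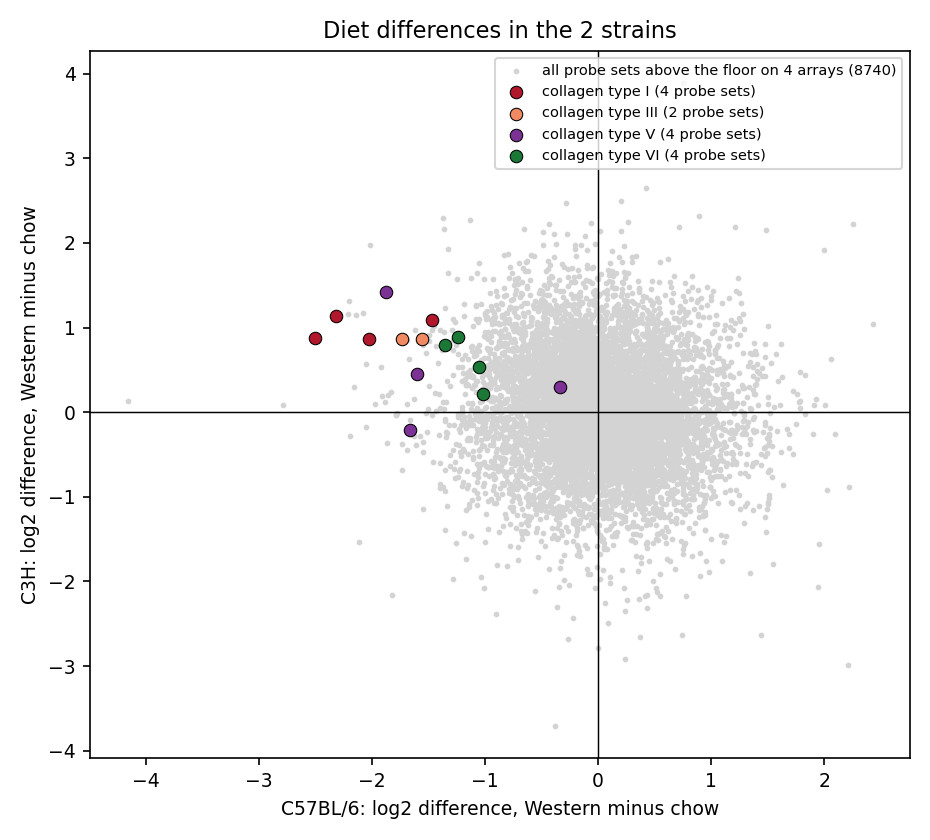
Log2 difference between Western and chow diet in C57BL/6 (horizontal) and in C3H (vertical) for the 8740 probe sets that passed the floor on every array (grey), with the 14 collagen probe sets coloured by type. Of the 14 collagen sets 13 lie at the upper left, lower in C57BL/6 and higher in C3H, where 27.4% of all lie, and 3 of 14 do so past 2-fold on both sides, where 0.366% do.

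Between the strains the chains differed mainly on chow. On Western diet all 8 were higher in C3H than in C57BL/6 but by little, with a median log2 difference of 0.59 and a range of 0.07 for Col6a2 to 0.70 for Col5a1. None reached 2-fold, where 4.07% of all genes were at least 2-fold higher and 4.2% at least 2-fold lower, and the pooled SD between probe sets of a gene was 0.52. By probe sets 2 of 15 pointed the other way, both of Col5a1, at log2 -0.61 for 1434479_at and -0.99 for 1416741_at. The median of the 3 Col5a1 sets was -0.61, so the direction of Col5a1 on Western diet depends on the probe set.

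On chow all 8 chains were at least 2-fold lower in C3H than in C57BL/6, where 9.1% of all genes were, while 8.01% of genes were at least 2-fold higher and none of the chains was. The median log2 difference was -1.89, with a range of -2.68 for Col1a1 to -1.35 for Col5a1, and the pooled SD between probe sets was 0.62. Col1a1 was 6.43-fold lower and Col5a2 6.10-fold lower, while Col6a2 was 2.87-fold lower. By probe sets, 13 of 14 measured were at least 2-fold lower, where 8.94% of all were. The comparisons on chow use the same chow arrays as the diet comparisons and are no further evidence for them.

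The order of the 4 arrays was C57BL/6 chow, C3H Western, C57BL/6 Western and C3H chow, from high to low, for 7 of 8 chains. In Col5a1, C57BL/6 Western stood lowest. By probe set, 11 of 14 had C57BL/6 chow highest and C3H chow lowest, where 14.0% of all had. Among the others, Col6a2 set 1426947_x_at had C57BL/6 Western lowest and Col5a1 set 1434479_at had C3H Western lowest. Each step was set against the pooled probe set SD of its own array pair, which is not a spread between mice or arrays. The step from C57BL/6 chow to the next array was log2 0.73 to 1.81 and exceeded the SD of 0.548 in all 8. The step from the second to the third array was 0.07 to 0.69 and exceeded its SD, 0.524 or in Col5a1 0.579, in 3. The step from the third to the fourth was 0.19 to 0.73 and exceeded the SD of 0.605 in 2, in Col1a2 barely, at 0.607. The arrays other than C57BL/6 chow thus lay within 1.45-fold (Col6a2) to 2.67-fold (Col5a2) of each other. Having C57BL/6 chow as the highest array was found for 25.7% of the 5646 genes, and having C3H chow lowest as well, as in 7 chains, for 14.1%.

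Diet and strain were also fitted as additive terms in limma over the 14915 probe sets that 2 or more arrays read above the floor, with Benjamini-Hochberg adjustment. The only residual of this fit is the unreplicated difference of responses, which is large for the collagens. For strain, 0 of the 15 collagen probe sets had a limma adjusted p under 0.05, where 0.121% of all were called higher and 0.261% lower in C3H. At an unadjusted p under 0.05 there were 3 of 15, where 5.85% of all had it. The lowest was Col5a1 by set 1434479_at, with a strain term of log2 -1.33 ± 0.38 (SE) and a limma adjusted p of 0.331, lower in C3H on 2 of 2 diets. None of the 15 passed for diet in limma either, where 0.0% of all were called in each direction, and 1 of 15 had an unadjusted p under 0.05, where 2.46% of all had it. Without the filter on low values, 1 collagen probe set passed for strain, Col1a1 by 1455494_at, at log2 -1.44 and a limma adjusted p of 0.00197, where 0.172% of all were called higher and 0.354% lower. By this set the strain difference was log2 -2.89 on chow and 0.003 on Western diet, so it was lower in C3H on 1 of 2 diets.

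The arrays themselves were not alike in quality. On C3H chow the 7 bacterial spike-in probe sets read a median of 1.72-fold above the mean of the other arrays, and its ratio of 3′ to 5′ actin signal stood at 2.28, with 1.63 to 1.83 elsewhere. By Gapdh this ratio was 1.187 on C3H chow, within the range of the others. That range ran from 1.033 on C57BL/6 chow to 1.275 on C57BL/6 Western. The correlation of C3H chow with the others over all probe sets was 0.705 to 0.726, against 0.746 to 0.761 among them. C3H chow enters every diet difference of C3H and every strain difference on chow, and neither can be computed without it. The C57BL/6 diet difference does not use it. With C3H chow left out of the normalization, a step chosen after the data were seen, its median over the chains was log2 -1.53, with 8 of 8 at least 2-fold lower.

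Other collagens were read from lists of named genes. None of the 4 other fibrillar chains with a probe set (Col2a1, Col5a3, Col11a1 and Col11a2) was above the floor on both arrays of any comparison. Of the FACIT and short-chain collagens, which decorate fibrils or form networks, 3 of 11 were measured in both C57BL/6 arrays and 0 passed 2-fold. In C3H, 4 were measured, 1 was at least 2-fold higher, where 6.47% of all genes were, and 2 of 4 were below 0. Col14a1, which binds fibril surfaces, had signals of 450.1 on C57BL/6 Western against 616.6 on C57BL/6 chow, and of 565.3 on C3H Western against 216.7 on C3H chow. Col16a1 differed by log2 -0.81 between diets in C57BL/6 and by 0.59 in C3H, again with C57BL/6 chow highest. Col12a1 and Col20a1, named after their values were seen, had C3H chow highest instead. Col12a1 differed by log2 0.84 in C57BL/6 and read 82.7, under the floor, on C3H Western against 263.4 on C3H chow, and Col20a1 differed by -0.80 in C3H.

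Of the basement membrane and multiplexin collagens, 7 of 9 were measured in both C57BL/6 arrays, with 7 of 7 below 0. Their median log2 difference between diets was -0.72, and 2 of 7 were at least 2-fold lower, where 3.93% of all genes were. In C3H the median was -0.04, with 4 of 7 below 0. There 1 of 7 was at least 2-fold higher, where 6.47% of all genes were. Col4a5 differed by log2 -0.83 in C57BL/6 and 1.85 in C3H, and Col15a1 by -1.97 and 0.10. Col4a6 differed by -1.79 and -0.04, and Col18a1 by -0.58 and 0.48. Col4a1 and Col4a2, the common chains of type IV collagen, named after their values were seen, differed by log2 -0.61 and -0.72 in C57BL/6 and by -0.25 and -0.16 in C3H. They were thus below 0 in both strains, where the 8 fibrillar and type VI chains were above 0 in C3H.

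Collagen chains are hydroxylated, glycosylated and folded in the endoplasmic reticulum before secretion. Of 14 measured genes for these steps, 0 passed 2-fold in C57BL/6 and 1 of 14 was at least 2-fold lower in C3H, where 5.87% of all genes were. Their median log2 difference between diets was -0.23 in C57BL/6 and 0.00 in C3H. P4hb, the shared subunit of prolyl 4-hydroxylase, differed by -0.60 in C57BL/6 and 0.48 in C3H, and Crtap, a partner of prolyl 3-hydroxylase, by -0.97 and 0.64. P3h3, a prolyl 3-hydroxylase family member, differed by -0.83 and 0.71, and P4ha2, a catalytic subunit of prolyl 4-hydroxylase, went the other way at 0.75 and -1.06. Serpinh1, the collagen chaperone Hsp47, named after its values were seen, differed by -0.90 and -0.97 by its brighter set 1456733_x_at and by -0.66 and 1.29 by set 1450843_a_at.

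After secretion, propeptides are cut off and the fibrils are cross-linked. Of 7 measured genes for these steps and fibril binding, 5 were at least 2-fold lower with Western diet in C57BL/6. Of all genes 3.93% were, and the median of the 7 was log2 -1.05. In C3H the median was 0.88, and 2 of 6 were at least 2-fold higher, where 6.47% of all genes were. Lox, the enzyme that starts cross-linking, had signals of 1705 on C57BL/6 Western against 4815 on C57BL/6 chow, and of 1902 on C3H Western against 1012 on C3H chow. Sparc, a secreted collagen-binding protein, had signals of 9342 on C57BL/6 Western against 30108 on C57BL/6 chow, and of 11662 on C3H Western against 6441 on C3H chow. By these sets both genes had the array order of the collagens. Sparc set 1448392_at gave log2 -0.94 in C57BL/6, short of 2-fold, and 1.04 in C3H, so the count of 5 above depends on the set chosen. By Lox set 1448228_at the log2 differences were -1.36 and 2.17. Another Lox set, 1437903_at, was under the floor in C3H and went the other way in C57BL/6, at log2 0.19. Pcolce2, an enhancer of propeptide removal, differed by log2 -0.83 in C57BL/6 and 1.38 in C3H, and Loxl3 by -0.45 and 1.47. Other genes of the list, named after their values were seen, had C3H chow as their highest array. Pcolce, another enhancer of propeptide removal, differed by log2 -1.05 in C57BL/6 and -0.61 in C3H. Bmp1, a protease that removes propeptides, read 90.5 on C57BL/6 Western against 347.6 on C57BL/6 chow, and 11.0, under the floor, on C3H Western against 398.8 on C3H chow.

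Among the collagen receptors 0 of 8 measured passed 2-fold in C57BL/6, with a median of log2 -0.21. In C3H the median was 0.25. There 2 of 5 were at least 2-fold higher and 1 of 5 lower, where 6.47% and 5.87% of all genes were. Itgb1, the integrin subunit shared by the collagen-binding integrins, had signals of 3191 on C57BL/6 Western against 4706 on C57BL/6 chow, and of 3191 on C3H Western against 1279 on C3H chow. Ddr1 and Ddr2, receptor kinases activated by collagen, differed by log2 0.11 and -0.62 in C57BL/6 and by -1.95 and 0.25 in C3H. Antxr1, which binds collagen and the type VI chains, differed by -0.12 and 1.47.

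The 10 genes outside the 8 chains that came nearest to their shared profile were then listed, where the profile is the median over the chains of log2 signal minus its mean over the 4 arrays. Likeness was the root mean square difference from this profile over 4 arrays, among 5638 genes above the floor on all arrays. The chains themselves lay between 0.07 (Col6a3) and 0.39 (Col1a1), and 237 other genes lay within 0.39. The nearest were Phkg2, a phosphorylase kinase subunit (0.02), and Rangrf (0.04), both with signals under 500 on every array. Plcb4, a phospholipase C (0.14), Sparc (0.15), Cdc42ep1, a Cdc42 effector (0.15), Mr1, an MHC class I-related gene (0.15), and the microtubule-associated Map1b (0.16) followed. Lrrfip1 (0.16), the secreted protein gene Ccdc80 (0.18) and the protease gene Adamts10 (0.18) completed the 10.

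**Figure D4:**
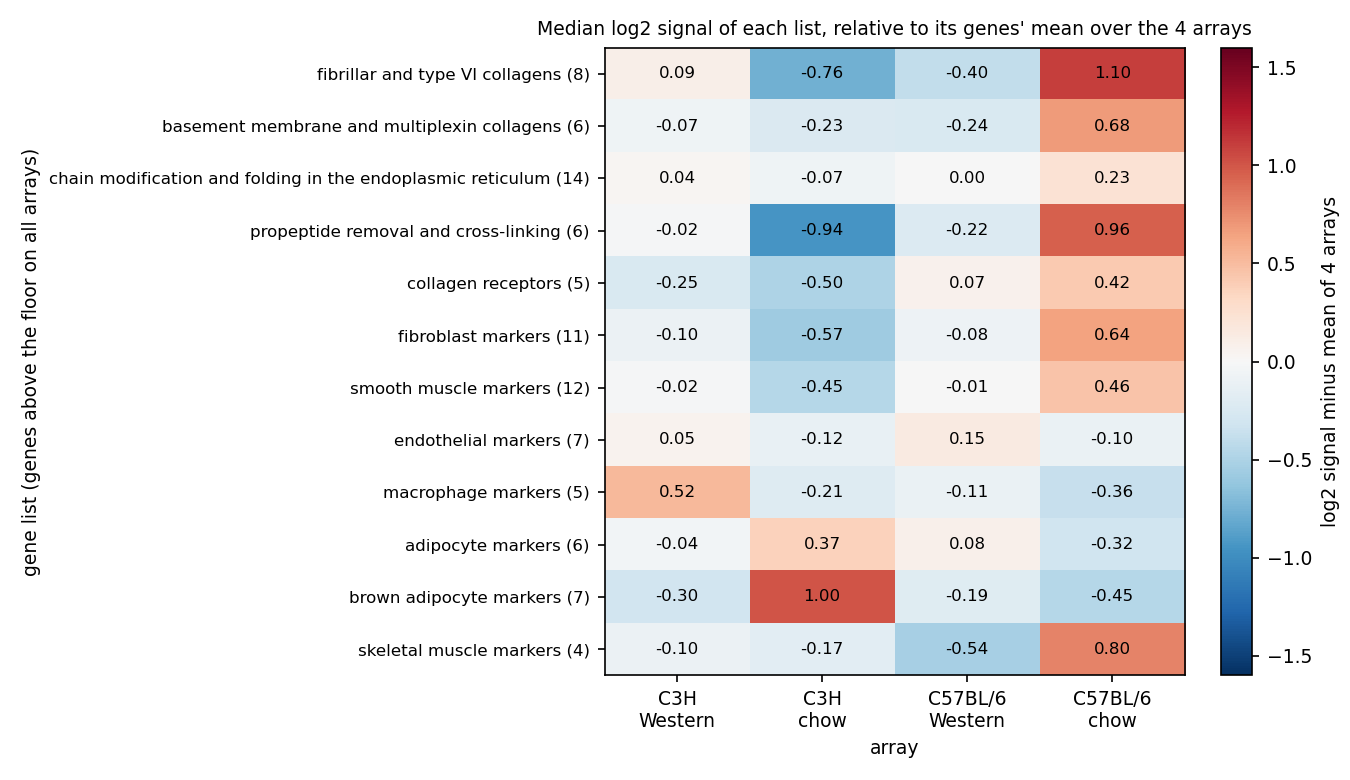
Median log2 signal of each gene list on each array (columns), relative to the mean of each gene over the 4 arrays, with the number of genes above the floor on all arrays in brackets. The collagens stand at -0.76 on C3H chow and at 1.10 on C57BL/6 chow, while brown adipocyte markers are highest on C3H chow and lowest, at -0.45, on C57BL/6 chow.

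Markers of the cells in and around the vessel also varied between the arrays. Summed signals below add all genes of a list with a probe set, also those under the floor, so the brightest sets weigh most. Smooth muscle markers, which define the media of the labelled aorta, were above the floor on all arrays for 12 of 12 genes and summed to signals of 79981 on C57BL/6 Western against 107514 on C57BL/6 chow, and of 76827 on C3H Western against 47331 on C3H chow. Their median log2 difference between diets was -0.48 in C57BL/6 and 0.47 in C3H, smaller than those of the collagens in both. Itga8 differed by -0.71 and 1.59, and Cnn1, a contractile protein gene, by -0.69 and 1.41. Synpo2 differed by -0.99 and 0.89, with C3H Western highest and C57BL/6 Western lowest. In C57BL/6 10 of 12 were below 0 and in C3H 10 of 12 were above 0. Of the exceptions, named after their values were seen, Des, the muscle intermediate filament gene, differed by 0.60 and -0.39, and Myocd, a smooth muscle coactivator gene, by -0.42 and -0.71. On chow 6 of 12 were at least 2-fold lower in C3H than in C57BL/6, where 9.1% of all genes were.

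Fibroblast markers, 12 of 14 measured in each pair, summed to 14542 on C57BL/6 Western against 26562 on C57BL/6 chow, and to 15042 on C3H Western against 8920 on C3H chow. Their median log2 difference was -0.83 in C57BL/6, with 5 of 12 at least 2-fold lower, where 3.93% of all genes were. In C3H it was 0.69, with 3 of 12 at least 2-fold higher, where 6.47% of all genes were. Mfap5 differed by -2.08 and 1.17, Lum, a collagen-binding proteoglycan gene, by -1.05 and 1.76, and Dpt by -1.09 and 0.66. Clec3b differed by -1.01 and 1.57. Unlike the collagens, Lum and Clec3b were highest on C3H Western, and Clec3b was lowest on C57BL/6 Western. In C57BL/6 12 of 12 were below 0. In C3H 9 of 12 were above 0, and the other 3, named after their values were seen, were Thy1 at log2 -0.61, Pdgfrb at -0.14 and Pi16 at -0.025. On chow 8 of 12 were at least 2-fold lower in C3H than in C57BL/6, where 9.1% of all genes were. Pdgfra, a defining fibroblast receptor, read 233.4 on C57BL/6 Western against 272.1 on C57BL/6 chow, and 224.1 on C3H Western against 56.3, under the floor, on C3H chow. Tcf21 was under the floor on all 4.

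Brown adipocyte markers, 7 of 7 above the floor on all arrays, had the opposite order on the chow arrays. They summed to 49898 on C57BL/6 Western against 43127 on C57BL/6 chow, and to 57606 on C3H Western against 85053 on C3H chow. Ucp1, the uncoupling protein of brown fat, read 9098 on C57BL/6 Western against 10640 on C57BL/6 chow, and 10130 on C3H Western against 25040 on C3H chow. Dio2, Ppargc1a and Elovl3 differed more between diets in C3H, by log2 -2.92, -2.78 and -2.12. With Western diet in C3H, 4 of 7 brown adipocyte markers were at least 2-fold lower, where 5.87% of all genes were. On chow 5 of 7 were at least 2-fold higher in C3H than in C57BL/6, where 8.01% of genes were. General adipocyte markers summed to 47760 on C57BL/6 Western against 39164 on C57BL/6 chow, and to 50112 on C3H Western against 62828 on C3H chow, with Lep under the floor throughout. Between diets, 6 of 6 measured were above 0 in C57BL/6, with a median of log2 0.56. In C3H 6 of 6 were below 0, with a median of -0.40. The part of these smooth muscle, fibroblast and adipocyte markers in the collagen differences was not tested.

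Heart muscle markers were all above the floor in C57BL/6, and summed to 14725 on C57BL/6 Western against 18998 on C57BL/6 chow, and to 782.6 on C3H Western against 985.6 on C3H chow, where 5 of 9 and 6 of 9 were under the floor. They differed by a median of log2 -0.38 between diets in C57BL/6, with 0 of 9 past 2-fold. Between strains, 4 of 4 measured on Western diet were at least 2-fold lower in C3H, where 4.2% of all genes were. On chow 3 of 3 measured were, where 9.1% of all genes were. The part of heart muscle in the collagen differences was not tested. Skeletal muscle markers summed to 838.3 on C57BL/6 Western against 1792 on C57BL/6 chow, and to 1066 on C3H Western against 969.3 on C3H chow. On each array 2 or 3 of these 8 genes were under the floor. In C57BL/6 5 of 5 measured were below 0 and 2 at least 2-fold lower with Western diet, where 3.93% of all genes were. In C3H 2 of 4 measured were below 0 and 0 passed 2-fold. Cartilage and bone markers were under the floor for 4 or 5 of 8 genes on each array, Matn1 and Cnmd on all 4. They summed to 619.4 on C57BL/6 Western against 888 on C57BL/6 chow, and to 635.8 on C3H Western against 745 on C3H chow. Sp7, of bone-forming cells, read 167.9 on C57BL/6 Western against 242.6 on C57BL/6 chow, and 195.6 on C3H Western against 212.3 on C3H chow. The part of skeletal muscle, cartilage and bone in the collagen differences was not tested.

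Endothelial markers had a median log2 difference between diets of 0.11 in C57BL/6 and 0.05 in C3H, with 0 of 7 and 0 of 8 past 2-fold. Vwf and Pecam1 differed by 0.26 and 0.05 in C57BL/6 and by -0.39 and 0.33 in C3H. Macrophage markers had medians of 0.32 and 0.49. At least 2-fold higher were 1 of 6 and 2 of 5, where 3.75% and 6.47% of all genes were. The macrophage medians were above 0 in both strains, where the collagens had opposite signs.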

How the data were processed

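The deposited values are linear intensities of a 1-colour Affymetrix array from 8 ug of total RNA, per the labels. The sources used here do not name the software behind them. Of the deposited probe sets, 64 controls were left out and 22626 kept. After log2, the 4 arrays were quantile normalized. Of these probe sets, 20380 name 1 gene, 691 several and 1555 are unnamed here, by the platform's annotation. The fit used limma 3.58.1 in R 4.3.3, with eBayes and a mean trend (prior of 17.3 degrees of freedom, 1 residual). It was also run on simulated data with additive strain changes and the same noise SD for all probe sets. Those data held no difference of responses between strains, so the run does not show how the fit treats the collagens. Python 3.11.15 was used for the rest.

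The chains, lists and tests were chosen with earlier results of these data known. Named were all chains and the 10 nearest profiles. From each list, names came from the up to 4 genes with the largest difference of diet responses above the floor on all arrays. For several lists not all of these are named. Pdgfra, Tcf21, Lep, Matn1 and Cnmd were named besides, after their values were seen, as markers under the floor, and some genes that differ from the collagens likewise, as the text says. Each list is read at 2-fold, with both arrays above the floor. Alternatives were the deposited values, equal medians, cyclic loess, a floor at the 25th or 60th percentile, thresholds of 1.5-fold and 3-fold, the median over all probe sets of a gene, and, in limma, no trend, no filter or 1 probe set per gene.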

Additional observations from a re-analysis of the deposited data

Results flagged for a closer look

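All 8 chains had diet differences of opposite sign in the strains, below 0 in C57BL/6 and above 0 in C3H, each strain with 1 Western and 1 chow array. This difference was not tested: with 4 arrays it takes up the last degree of freedom. The C3H difference minus the C57BL/6 difference was log2 3.38 for Col1a1, 2.56 for Col1a2 and 2.60 for Col3a1. It was 2.05 for Col5a1 and 3.29 for Col5a2. It was 2.13 for Col6a1, 1.59 for Col6a2 and 2.15 for Col6a3. For Col5a1 it was 1.45 by set 1434479_at, where both strains were below 0, and 0.64 by set 1416741_at.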

How the results depend on the processing

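No group has a replicate, and no paired analysis was possible because each group has 1 array. Under all alternatives run, the median of the 8 chains stayed between log2 -1.602 and -1.38 for diet in C57BL/6, 0.83 and 1.05 for diet in C3H, 0.37 and 0.59 for strain on Western diet and -1.96 and -1.84 for strain on chow. The median difference of responses stayed between 2.27 and 2.35. Counts past the threshold depended on it. At 3-fold, 4 chains were lower in C57BL/6 with Western diet and 0 higher in C3H, and at 1.5-fold 6 were higher in C3H and 4 were higher in C3H than in C57BL/6 on Western diet. Equal array medians gave 5 chains at least 2-fold higher in C3H and cyclic loess 1, against 2. The deposited values, equal medians and the median over probe sets each left 7 chains at least 2-fold lower in C57BL/6, against 8. With equal medians the median of all probe sets in C3H shifted by log2 0.11, and 865 of them were higher and 455 lower, against 684 and 635. That scaling also turned Col6a2 between strains on Western diet to -0.026, and the median over probe sets turned Col5a1 there to -0.61. Without the filter limma called 1 chain probe set for strain, against 0. Leaving C3H chow out of the normalization, a setting chosen after seeing the data, gave a strain median on Western diet of 0.59, and leaving C57BL/6 chow out gave 0.58 there and 0.86 for diet in C3H. No detection calls accompany the values, so the floor is a choice of this work.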
